A study of Mus musculus with 8 samples.

Results

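The genes described here are 10 regulators of mitochondrial content and fuel use, measured by mRNA sequencing in mouse gastrocnemius, the large, mostly fast-fibred muscle of the calf. They were chosen by name from the 38741 distinct symbols of the deposited table, with the row of the highest mean taken for each symbol. They are the coactivators Ppargc1a and Ppargc1b, the estrogen-related receptors Esrra, Esrrb and Esrrg, the fatty acid receptors Ppara and Ppard, and the factors Nrf1, Gabpa and Tfam. All 10 symbols were found, each on 1 row. The comparison was between 4 wild-type male mice of 9 to 10 weeks and 4 male mice of 10 to 11 weeks homozygous for the Bcat2tm1.2Clyn allele. Wild types weighed 22 to 25 g and knockouts 15 to 24 g, so age and body weight went along with genotype and cannot be told apart from it. Both groups had a C57BL6 genetic background, and both chose freely between chow and a purified diet without branched-chain amino acids. Bcat2 encodes BCATm, the mitochondrial enzyme that takes the amino group off leucine, isoleucine and valine. The comparison asked how muscle transcripts differ when that first step of branched-chain amino acid breakdown is missing.

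PGC-1 coactivators do not bind DNA themselves. They dock onto transcription factors, among them the ERR and PPAR nuclear receptors and NRF-1, and raise transcription of genes of the respiratory chain, the TCA cycle and fatty acid oxidation. GABP and NRF-1 act on nuclear genes of the respiratory chain and on Tfam, whose protein packages mitochondrial DNA and starts its transcription. In muscle, PGC-1alpha is known for its induction by exercise and for its link to oxidative fibres.

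The promoter of Ppargc1a is shown because this gene was the only one of the 10 whose groups did not overlap. Of the 11118 genes tested, 6.75% had groups that did not overlap, with 4.68% lower in knockouts. The 250 bases before its annotated start (RefSeq, GRCm38.p6, chr5:51567726-51567975, minus strand) held 1 core of the cyclic AMP element, TGACG, in capitals and here read on the opposite strand, with its first base 49 bases before the start.
Ppargc1a: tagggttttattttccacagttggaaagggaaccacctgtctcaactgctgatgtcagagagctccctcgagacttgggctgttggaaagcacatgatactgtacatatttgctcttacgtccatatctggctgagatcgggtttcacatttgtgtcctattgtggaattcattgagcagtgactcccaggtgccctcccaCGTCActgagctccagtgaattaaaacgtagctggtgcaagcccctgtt
That core was in 17.8% of the 32851 RefSeq promoter windows of this length, so its presence is common. The full element TGACGTCA was in 1.55% of windows and had no match in this one.

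Promoter entries existed for 9 of the 10 genes, some with several start sites, and Ppargc1b had none. Both strands of each window were searched for letters that regulators of this same group are known to bind, and for a MEF2 element. The stretches below are shown because they hold binding letters for NRF-1, GABP or MEF2 shortly before a RefSeq start of other members, with the match in capitals. All 4 lie inside the member's own gene as deposited, downstream of the outermost start in that annotation.
Tfam: tgccgcggaCCGGAAGtccgggctt
Gabpa: gggtaagtgCTTCCGGgtccctcag
Ppara: ggctcggtgGCGCATGCGCgcggactag
Esrrg: aaaactttgCTATTTATAGtctacgccc
The Tfam stretch (GRCm38.p6, chr10:71238076-71238100, minus strand) holds CCGGAAG, the ETS letters GABP recognises, and the Gabpa stretch (chr16:84835022-84835046, plus strand) holds the same letters on the opposite strand. CCGGAAG was in 6.91% of all windows. The Ppara stretch (chr15:85735736-85735763, plus strand) holds the palindrome NRF-1 binds, in capitals, found in 0.782% of windows. The Esrrg stretch (chr1:187608975-187609002, plus strand) lies at the first of its 4 listed start sites and holds the MEF2 letters in capitals, found in 0.14% of windows. The ERR element TCAAGGTCA, found in 0.387% of windows, was in none of the members' windows, and neither was the AGGTCA inside it, found in 14.0% of windows. These matches describe letters only, since no binding was measured.

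The knockout label was checked on Bcat2 itself. It read 83.0, 42.7, 46.0 and 41.2 FPKM in WT1 to WT4 and 2.89, 5.26, 2.91 and 2.09 FPKM in KO5 to KO8, where FPKM stands for fragments per kilobase of transcript, scaled to library size. All 4 knockouts lay far under the wild-type range (log2 change -3.65, SE 0.28, limma adjusted p = 0.00245), although its exons share 622 bases with an antisense gene, 0610005C13Rik. The 8 genes of the fast muscle fibre list summed to 65350 to 76210 FPKM in wild type and 65110 to 100300 FPKM among knockouts, so each library carried the markers of muscle. Depth relative to WT2 ran from 0.437 to 1.23. The 10 fat cell markers summed to 18490 FPKM in WT1 and 9633 FPKM in KO6, against 1621 to 3080 FPKM in the other 6 mice. The 8 keratinocyte markers summed to 709.9 FPKM in KO6 and to at most 7.06 FPKM elsewhere. In whole tissue, fewer cells of a type and less RNA per cell cannot be told apart.

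None of the regulators passed the test. Of the 10 genes, 9 had FPKM above 0, and 7 had a mean of at least 1 FPKM and were tested in a fit over 11118 genes. Among those 7, 0 passed a limma adjusted p of 0.05, with adjusted p from 0.484 to 0.979, while 0.027% of all tested genes did (0.018% lower and 0.00899% higher in knockouts). These p-values measure only the spread between these mice. At an unadjusted p under 0.05 the count was 1 of 7, Ppargc1a, against 10.3% of all tested genes. That call was lost in 14 of the 20 alternatives that tested Ppargc1a, with limma unadjusted p up to 0.322 under quantile scaling, and it held in 6. The same single gene was the only one whose groups did not overlap, against 6.75% of tested genes in either direction and 4.68% lower in knockouts. Knockout means were lower for 7 and higher for 2 of the 9 genes above 0. A log2 change below 0 was found for 6 of the 7 tested genes, against 63.6% of all tested genes. The median log2 change of the 7 tested genes was -0.13, beside -0.12 for all tested genes, where log2 changes are knockout minus wild type on the log2(FPKM + 1) scale. Scaling the libraries to a common median ratio moved the median of all genes to -0.002, and then Esrra, Esrrg and Nrf1 also lay above 0. In the authors' deposited table the flag for a p-value under 0.05 was 0 for each of the 10 genes.

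**Figure D1:**
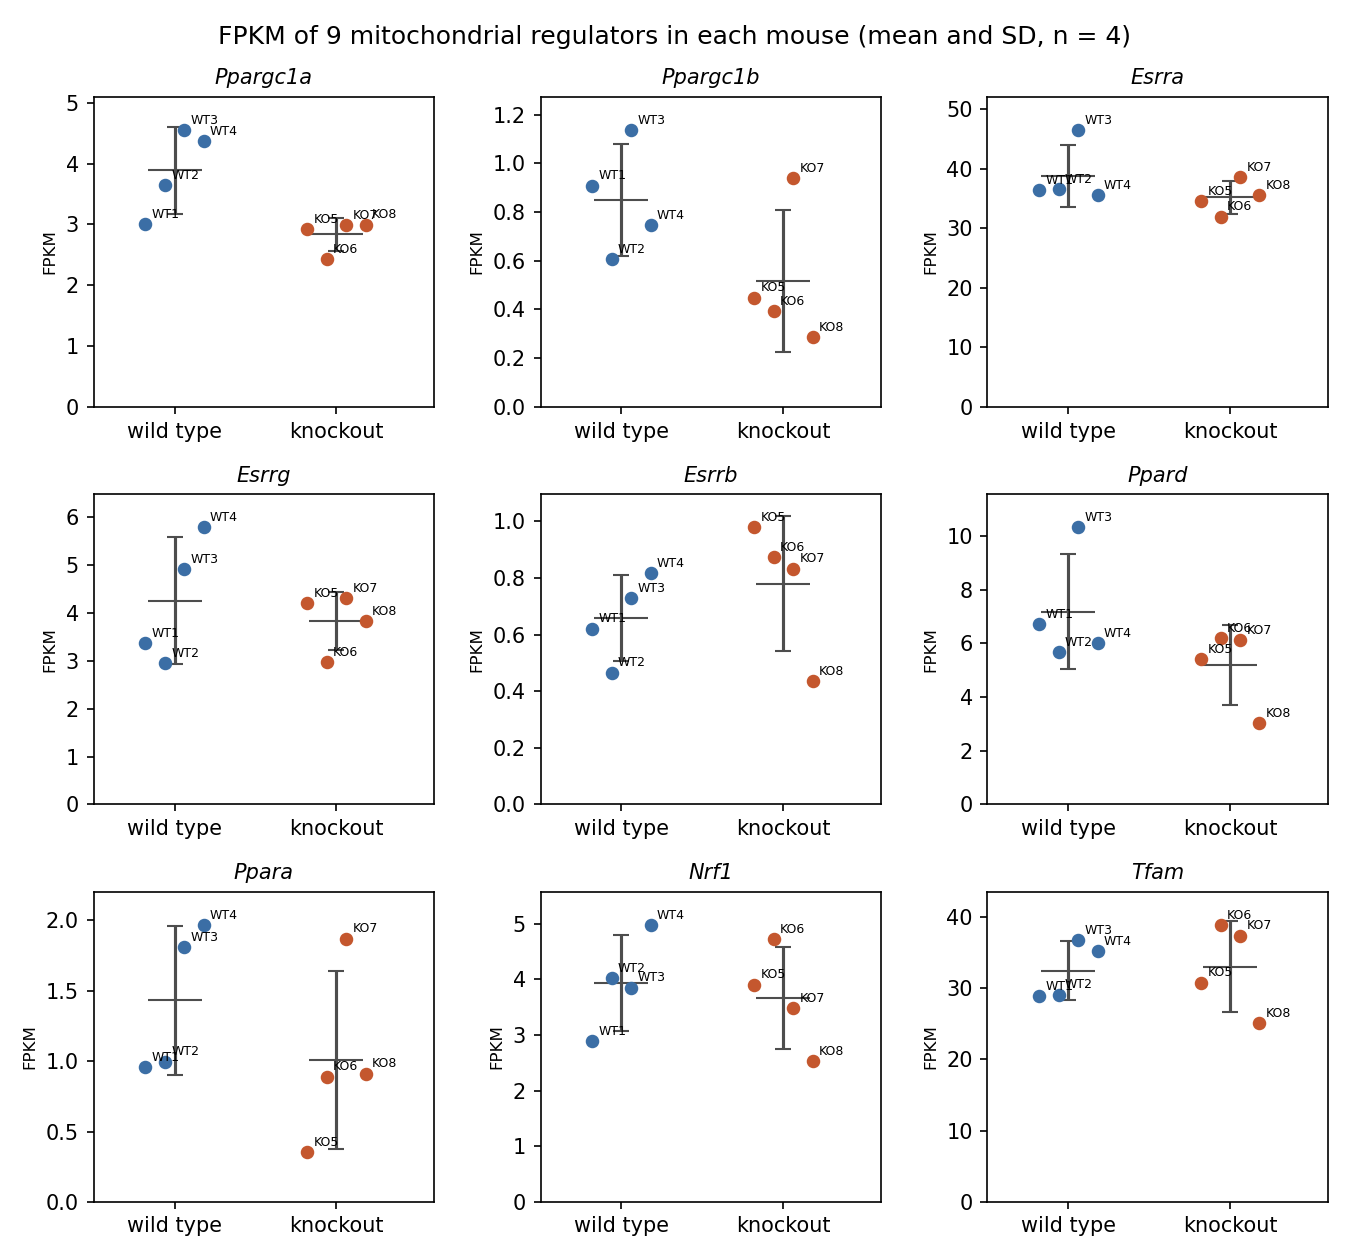
FPKM of the 9 regulators above 0 in each mouse, one panel per gene, with points for the 4 wild-type and 4 knockout mice and bars for the mean and SD; each vertical axis starts at 0 and has its own range. In the Ppargc1a panel all knockouts lie under the lowest wild type, 3.00 FPKM, while in every other panel the groups overlap.

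Among the coactivators, Ppargc1a, which encodes PGC-1alpha (ENSMUSG00000029167, mm10 chromosome 5, 51454249 to 51567725), read 3.00, 3.64, 4.55 and 4.37 FPKM in WT1 to WT4. In KO5 to KO8 it read 2.92, 2.43, 2.98 and 2.99 FPKM. Every knockout was thus under every wild-type mouse, but the lowest wild type, WT1, exceeded the highest knockout, KO8, by only 0.0036 FPKM. The means were 3.89 ± 0.713 and 2.83 ± 0.269 FPKM (SD, 4 mice each), a knockout level of 72.8% of wild type. The log2 change was -0.34 (SE 0.15, 95% interval -0.68 to -0.01), or -0.22 once the all-gene median was taken off. The unadjusted limma p was 0.0469 and the adjusted p 0.484. Without any 1 of WT2, WT3, WT4 or the 4 knockouts the unadjusted limma p lay between 0.0537 and 0.127, and without WT1 it was 0.0194. An exact permutation test gave p = 0.0286 (2-sided), the smallest that 4 against 4 mice allow. With the libraries scaled to a common median ratio the log2 change was -0.22 (limma adjusted p = 0.565), smaller by more than 1.5 times. Without WT1 and KO6, the mice with the most fat transcripts and the lowest Ppargc1a of their groups, it was -0.38 (limma adjusted p = 0.453).

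Ppargc1b, which encodes the related coactivator PGC-1beta, read 0.909, 0.606, 1.14 and 0.748 FPKM in wild-type mice, against 0.448, 0.394, 0.94 and 0.285 FPKM in knockouts. KO5, KO6 and KO8 lay under all wild-type mice, and KO7 lay among them. The means were 0.85 ± 0.229 and 0.517 ± 0.29 FPKM (SD, 4 mice each), below the mean of 1 FPKM needed to enter the fit. An exact permutation test gave p = 0.143, and a fit with no filter gave a log2 change of -0.30 (SE 0.16, limma adjusted p = 0.706). Per length, Ppargc1a was the larger part of the PGC-1 pair in every mouse, at 76.0% to 91.3% of their summed FPKM. Its share was 82.0 ± 4.36% in wild type and 85.0 ± 6.43% in knockouts, so the makeup of the pair overlapped between genotypes. The summed level of the pair ran from 3.91 to 5.69 FPKM in wild type and from 2.83 to 3.92 FPKM in knockouts, with KO7 just above WT1.

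The estrogen-related receptors are nuclear receptors with no known natural hormone that partner with PGC-1. Esrra, encoding ERRalpha (ENSMUSG00000024955, chromosome 19, 6910977 to 6921813), was the most abundant regulator, above 86.1% of the tested genes by mean FPKM. It read 36.4, 36.5, 46.6 and 35.5 FPKM in wild-type mice, against 34.6, 32.0, 38.6 and 35.6 FPKM in knockouts. WT3 stood above the other 7 mice, which lay within 32.0 to 38.6 FPKM in both genotypes. The log2 change was -0.13 (SE 0.14, 95% interval -0.44 to 0.18, limma adjusted p = 0.658), and it was 0.017 after median-ratio scaling. Without WT3 alone the change of Esrra was -0.041, and without KO6 alone -0.086. The annotated exons of Esrra share 73 bases, 1.66% of their length, with Trmt112 on the opposite strand. Trmt112, a neighbour chosen after its values were seen, was listed at 40.5, 43.6 and 39.9 FPKM in WT2, WT4 and KO5 and at 0 in the other 5 mice. Esrra showed no such step, at 34.6 to 36.5 FPKM in those 3 mice.

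Esrrg, encoding ERRgamma, which is known for its expression in oxidative muscle and heart, read 3.36, 2.95, 4.91 and 5.79 FPKM in wild type. In knockouts it read 4.20, 2.97, 4.31 and 3.83 FPKM, all inside the wild-type range. Its log2 change was -0.10 (SE 0.20, 95% interval -0.56 to 0.36, limma adjusted p = 0.832), and 0.029 after median-ratio scaling. With single mice left out it ran from -0.22 without WT2 to 0.038 without WT4, and was -0.18 without WT1, -0.029 without WT3, -0.0061 without KO6 and -0.15 without KO7. Esrrb, encoding ERRbeta, read 0.621, 0.466, 0.729 and 0.817 FPKM in wild-type mice, against 0.979, 0.873, 0.832 and 0.435 FPKM in knockouts. Here 3 knockouts were above every wild type and KO8 was below them all (exact permutation p = 0.429), and its mean was too low for the fit. Of the summed FPKM of the 3 receptors, Esrra held 84.3% to 91.4% in every mouse, Esrrg 7.40% to 13.7% and Esrrb 1.09% to 2.46%. The Esrra share was 88.8 ± 3.1% in wild-type mice, against 88.4 ± 1.1% in knockouts (SD, 4 mice each), so the mix of ERR transcripts overlapped between the groups.

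Slow fibre markers were given beside Esrrg because both are tied to oxidative fibres. The 10 markers summed to 553, 323, 997 and 1437 FPKM in WT1 to WT4 and to 1901, 605, 638 and 848 FPKM in KO5 to KO8, and none of the 10 passed the test. Esrrg was lowest in WT2, the mouse with the lowest slow fibre sum, and highest in WT4, the wild type with the highest. KO5, with the highest sum of all, had 4.20 FPKM of Esrrg, near the middle. The part of fibre content in these values was not tested.

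Both fatty acid receptors had lower knockout means, within the spread between mice. Ppard, encoding PPARdelta, the main PPAR of muscle, read 6.70, 5.66, 10.3 and 6.02 FPKM in wild-type mice, against 5.40, 6.20, 6.10 and 3.03 FPKM in knockouts. WT3 was the highest and KO8 the lowest of the 8 mice, and the other 6 lay together between 5.40 and 6.70 FPKM. The log2 change was -0.41 (SE 0.24, 95% interval -0.95 to 0.14, limma adjusted p = 0.512), and the exact permutation p was 0.171. Without WT3 and KO8 the change of Ppard was -0.045 (limma adjusted p = 0.966). Leaving out the highest wild type with the lowest knockout, a pair chosen after seeing the data, had to shrink the change. The change of Ppard was -0.24 without WT3 alone and -0.21 without KO8 alone. With a trend on transcript length and GC content removed from each mouse, it was -0.22 (limma adjusted p = 0.565).

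Ppara, encoding PPARalpha, known for fatty acid oxidation in liver and heart, read 0.955, 0.997, 1.81 and 1.97 FPKM in wild-type mice, against 0.355, 0.889, 1.87 and 0.911 FPKM in knockouts. WT3, WT4 and KO7 formed the upper 3 values and KO5 stood lowest. The log2 change was -0.30 (SE 0.28, 95% interval -0.95 to 0.34, limma adjusted p = 0.625), and the exact permutation p was 0.171. It was -0.14 with the length and GC trend removed and -0.59 with a pseudocount of 0.1. Single libraries also moved Ppara, to -0.13 without KO5, -0.20 without WT4 and -0.49 without KO7. Ppard exceeded Ppara in every mouse, by 3.06 to 7.02 times in wild type and by 3.27 to 15.2 times in knockouts, where KO5 gave the highest ratio. The third receptor of the family, Pparg, the fat cell PPAR, was not among the 10 genes. It read 15.2 FPKM in WT1 and 8.43 FPKM in KO6, against 0.949 to 2.11 FPKM in the other 6 mice. Ppard read 6.70 FPKM in WT1 and 6.20 FPKM in KO6, exceeded only by WT3. Ppara read 0.955 FPKM in WT1 and 0.889 FPKM in KO6. Whether fat content played a part in these values was not tested.

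Nrf1, here nuclear respiratory factor 1, read 2.89, 4.02, 3.85 and 4.98 FPKM in wild-type mice, against 3.91, 4.73, 3.49 and 2.53 FPKM in knockouts. The groups overlapped almost entirely, with KO8 lowest (log2 change -0.087, SE 0.19, 95% interval -0.53 to 0.35, limma adjusted p = 0.845), and the change was 0.023 after median-ratio scaling. Without single mice the change of Nrf1 was -0.20 (WT1), 0.011 (WT4), -0.19 (KO6) and 0.040 (KO8). Tfam, the mitochondrial DNA packaging and transcription factor, read 28.8, 29.1, 36.7 and 35.2 FPKM in wild type. In knockouts Tfam read 30.7, 38.9, 37.3 and 25.0 FPKM, with both the highest and the lowest value of the 8 mice in this group. Its means were 32.4 ± 4.09 and 33.0 ± 6.37 FPKM (SD, 4 mice each), with a log2 change of 0.012 (SE 0.17, 95% interval -0.38 to 0.41, limma adjusted p = 0.979). The interval spans changes of more than 0.3 on the log2 scale in both directions, so changes of that size are not excluded by these mice. Leaving out single mice turned the sign of Tfam, down to -0.071 without KO6.

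Gabpa, the DNA-binding subunit of GABP (ENSMUSG00000008976, chromosome 16, 84834925 to 84863779), was listed at 0 in all 8 mice. Its annotated exons share 397 bases, 6.98% of its exonic length, with Atp5j on the opposite strand, which encodes a subunit of ATP synthase. Atp5j read 1444 ± 121 FPKM in wild-type mice, against 1618 ± 106 FPKM in knockouts (SD, 4 mice each). The Gabpa promoter stretch shown above lies inside the Atp5j gene. Other genes that cells commonly use were also listed at 0 in this table. Surf1, an assembly factor of cytochrome oxidase and the least abundant of the NRF-1 and GABP targets, stood at 0 in 7 mice and at 27.1 FPKM in KO8. Mterfd1, a mitochondrial transcription factor chosen after its values were seen, was at 0 in all 8. A listing at 0 is therefore not read as absence, and no level of Gabpa is reported. Its partner subunit Gabpb1, chosen after its values were seen, read 1.35 to 2.34 FPKM in wild type and 0.876 to 2.49 FPKM in knockouts.

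In the order of levels per length, Esrra (37.0 ± 4.31 FPKM over the 8 mice) and Tfam (32.7 ± 4.96 FPKM) each stood above Ppard, the next gene, in all 8 mice. Esrra exceeded Tfam in 7 of 8 mice, and their ranges overlapped. Ppard (6.18 ± 2.01 FPKM) was followed by Esrrg (4.04 ± 0.982), Nrf1 (3.80 ± 0.834) and Ppargc1a (3.36 ± 0.754 FPKM). These neighbours overlapped: Esrrg exceeded Nrf1 in 6 of 8 mice, and Nrf1 exceeded Ppargc1a in 5. Ppara (1.22 ± 0.585 FPKM) came below Ppargc1a in all 8 mice, and Esrrb (0.719 ± 0.196) and Ppargc1b (0.683 ± 0.3 FPKM) came last, each higher in 4 of 8. Ppargc1a thus stood at about the level of Esrrg and Nrf1 and well below its partner ERRalpha. The ratio of Ppargc1a to Esrra FPKM within a mouse ran from 0.0823 to 0.123 in wild type and from 0.0762 to 0.0846 in knockouts.

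**Figure D2:**
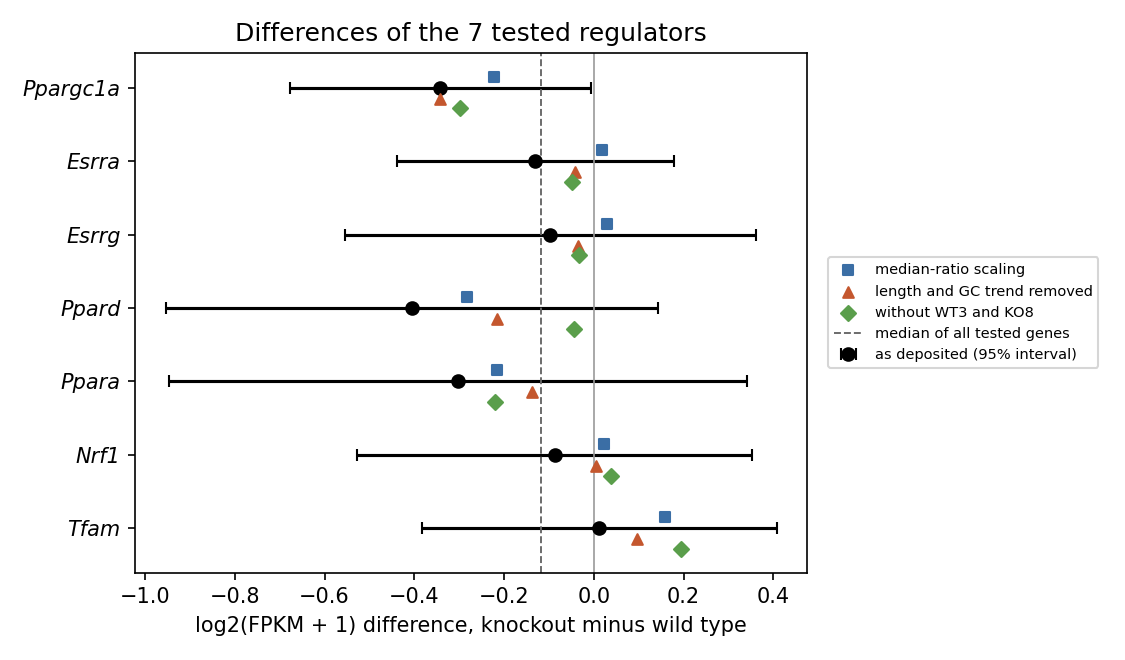
Difference in log2(FPKM + 1), knockout minus wild type, for the 7 tested regulators: black points and bars give the estimate and 95% interval from values as deposited, and coloured points the estimate under 3 other treatments of the data. Intervals of all but Ppargc1a cover 0. The point of Ppard moves from -0.41 to -0.045 without WT3 and KO8, its highest wild type and its lowest knockout.

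Several low and high values came from the same libraries. KO8 was the lowest of the 8 mice for 5 of the 9 genes above 0, and WT3 was the highest for 4 of them and WT4 for 3. On the log2 scale, 11023 tested genes with a known transcript length deviated from their own means by a median of -0.35 in KO8 and 0.16 in WT3, and of -0.071 to 0.14 in the other 6 mice. In these libraries the deviation also moved with transcript length, by 0.0888 per doubling of length in WT3, 0.0766 in WT4 and -0.093 in KO8. The other 5 lay between -0.0323 and 0.00975. Ppargc1a had a log2 change of -0.34 both before and after this length trend, together with one on GC content, was removed (limma adjusted p = 0.487 after removal). Without WT3 and KO8 the change of Ppargc1a was -0.30 (limma adjusted p = 0.884).

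**Figure D3:**
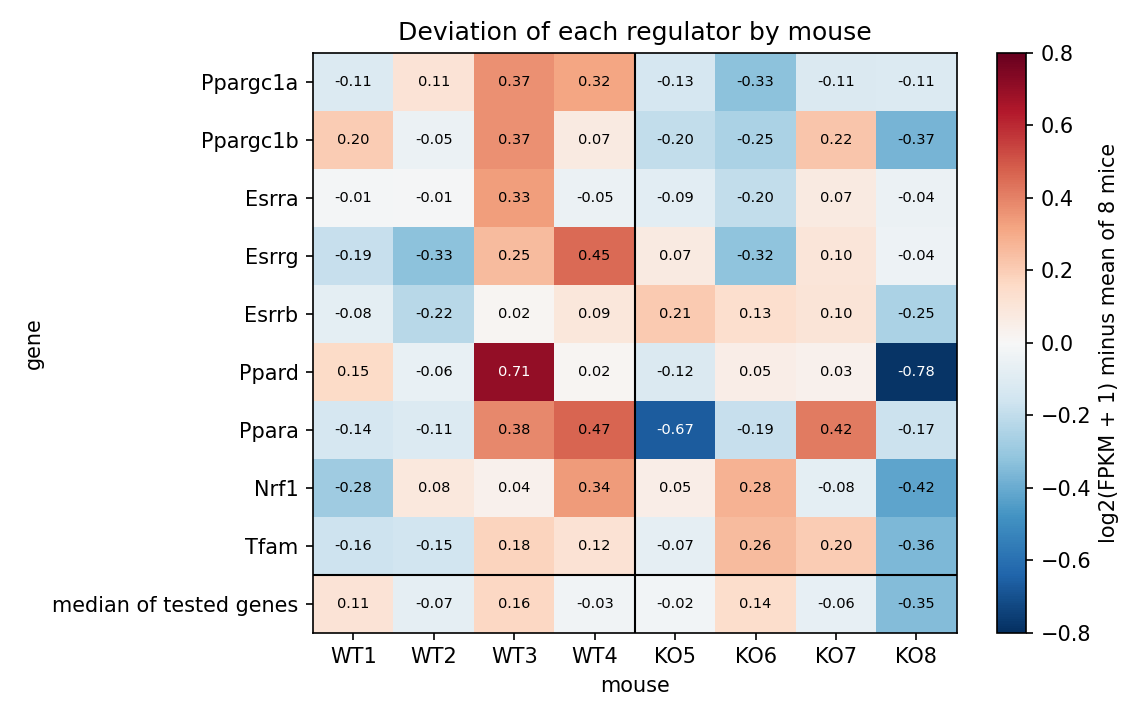
Deviation of log2(FPKM + 1) from the mean of the 8 mice for the 9 regulators above 0 (rows) in each mouse (columns), with the median over 11023 tested genes in the bottom row; red is above and blue below the gene's mean. The KO8 column is below 0 in every row and the WT3 column above 0 in every row.

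The other genes of the pathway were described by 5 lists, of which 125 distinct genes were tested. None passed the threshold over all genes, with a smallest limma adjusted p of 0.48, and 24 were lower and 4 higher at an unadjusted p under 0.05. Among all tested genes those shares were 7.33% lower and 2.99% higher. The median log2 change of all tested genes, to set beside the list medians below, also moved with the treatment. It was -0.12 as deposited, -0.002 after median-ratio scaling, -0.042 with the length and GC trend removed and 0.015 without WT3 and KO8. The lists were drawn up with earlier results of these data known, so the counts describe them and are no independent evidence of a direction. Markers of other cells in the tissue were also lower at an unadjusted p under 0.05, with 4 of 8 fibroblast and 3 of 8 endothelial markers lower, 0 higher and 0 past the adjusted threshold. The fibroblast markers summed to 437.6 to 724.9 FPKM among wild types and 380.2 to 574.0 FPKM among knockouts. The endothelial markers summed to 83.2 to 152.3 and 86.3 to 117.9 FPKM. The lowest of these wild-type sums, in WT1, held the marker Egfl7 at 0, against 38.3 to 70.6 FPKM in the other mice. Since a listing at 0 is not read as absence, the overlap of the endothelial sums is not firm. The part of these cells in the lists' values was not tested.

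Partners and modifiers of the regulators, such as RXR receptors, corepressors and acetyltransferases, had 30 tested genes, 4 of them lower and 0 higher at an unadjusted p under 0.05. Their median log2 change was -0.24. It was -0.15 after median-ratio scaling, -0.14 with the length and GC trend removed and -0.029 without WT3 and KO8. Without WT1 and KO6 it was -0.30, beside -0.16 for all genes. The 4 with the smallest p did not pass. In each of these 4, WT3 was the highest and KO8 the lowest of the 8 mice. Leaving out that pair, chosen after seeing the data, had to shrink their changes. Rxra, an RXR that pairs with PPARs on DNA, had means of 25.2 ± 6.28 and 17.9 ± 3.0 FPKM (SD, 4 mice each). Thra, the thyroid hormone receptor alpha, had means of 19.8 ± 3.3 and 14.7 ± 2.64 FPKM (SD, 4 mice each). Kat2a, the acetyltransferase GCN5 that acts on PGC-1alpha, had means of 4.88 and 3.39 FPKM. Perm1, a muscle gene induced by PGC-1 and ERR and listed under an older symbol, had means of 39.9 and 26.2 FPKM. Of these, Thra alone had groups that did not overlap. Mef2c, a muscle transcription factor, was the most abundant of the list at 64.5 and 57.4 FPKM, and the acetyltransferase gene Crebbp the least at 1.38 and 1.01 FPKM.

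Genes of mitochondrial DNA transcription and upkeep, which work beside Tfam, had 17 tested members. Their median log2 change was -0.11, near that of all genes, and 0.037 after median-ratio scaling. It was -0.13 with the length and GC trend removed and -0.059 without WT3 and KO8. Those values lay below the medians of all genes, -0.042 and 0.015. At an unadjusted p under 0.05, 3 were lower and 0 higher. Peo1, the mitochondrial DNA helicase Twinkle, read 4.75, 4.50, 6.99 and 5.14 FPKM in wild-type mice, against 3.29, 3.40, 3.34 and 2.42 FPKM in knockouts. The groups did not overlap, and the log2 change of -0.62 (SE 0.16, limma adjusted p = 0.48) did not pass. Lrpprc, which stabilises mitochondrial mRNA, had means of 15.8 and 10.2 FPKM, and its partner Slirp went the other way, at 592 and 874 FPKM. Slirp read 306 FPKM in WT3 and 1061 FPKM in KO8. Its log2 change was 0.62, with 0.59 once the length and GC trend was removed, 0.32 without WT3 alone and 0.22 without WT3 and KO8. Top1mt, the mitochondrial topoisomerase, had means of 4.88 and 3.4 FPKM, and Polg2, an accessory subunit of the mitochondrial DNA polymerase, was the least abundant at 2.21 and 2.42 FPKM.

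Known targets of PGC-1 and ERR had 30 tested genes, and 11 were lower and 2 higher at an unadjusted p under 0.05. Their median log2 change was -0.28, and 22 lay under the median of all genes. The list median was -0.13 after median-ratio scaling, -0.28 with the length and GC trend removed and -0.20 without WT3 and KO8. For all genes these medians were -0.002, -0.042 and 0.015, and 0 genes of the list passed in any of these settings. Ndufs1, Sdha and Cs, enzymes of the TCA cycle and respiratory chain, were among those with the smallest p, each with groups that did not overlap. Ndufs1, a subunit of complex I, had means of 153.8 and 109.7 FPKM. Sdha, the flavoprotein of succinate dehydrogenase, had means of 237.1 and 157.9 FPKM. Citrate synthase, Cs, read 191, 171, 290 and 209 FPKM in wild-type mice, against 138, 145, 144 and 92.0 FPKM in knockouts (log2 change -0.72, SE 0.21, limma adjusted p = 0.48). Cox8b, a muscle subunit of cytochrome oxidase and the most abundant of the list, went the other way with means of 3953 and 5811 FPKM. Ccbl2, an aminotransferase of kynurenine, was the least abundant at 5.09 and 5.37 FPKM.

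PPAR targets had 32 tested genes, of which 6 were lower and 0 higher at an unadjusted p under 0.05, with a median log2 change of -0.29. That median was -0.14 after median-ratio scaling and -0.17 without WT3 and KO8. The 4 with the smallest p were Etfdh, Hadha, Acadl and Acaa2, all enzymes of fatty acid oxidation, and none passed. Etfdh had means of 58.2 and 41.2 FPKM and groups that did not overlap, and Hadha 97.6 and 62.2 FPKM. Acadl and Acaa2 had means of 112.8 and 75.7 FPKM and of 92.4 and 68.9 FPKM. Fabp3, the muscle fatty acid binding protein, was the most abundant at 339 and 246 FPKM, and Acot1, a thioesterase, the least at 0.392 and 1.76 FPKM, with 5.57 FPKM in KO6. Pdk4 and Angptl4 are PPAR targets chosen after their values were seen. Pdk4, the kinase that turns off pyruvate dehydrogenase, had means of 100.7 and 122.6 FPKM. Angptl4, an inhibitor of lipoprotein lipase, had means of 13.1 and 9.40 FPKM, but a log2 change of 0.44 (SE 1.03), so that mean and log2 change differ in sign. It stood at 46.8 FPKM in WT1 and 25.7 FPKM in KO6, the mice with the most fat transcripts, against 0.828 to 4.90 FPKM elsewhere.

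Targets of NRF-1 and GABP had 24 tested genes, with 0 lower and 2 higher at an unadjusted p under 0.05. Their median log2 change was -0.00056, and 0.14 after median-ratio scaling. Above the median of all genes lay 17, among them Surf1, listed at 0 in 7 mice. Without WT3 and KO8 the list median was -0.0235, beside 0.015 for all genes, so it then lay below. Cox6c, a subunit of cytochrome oxidase, was the most abundant of the list and read 5675, 5942, 2614 and 5656 FPKM in wild-type mice, against 7451, 7537, 7690 and 9339 FPKM in knockouts. Every knockout exceeded every wild type, and WT3 stood lowest and KO8 highest, the reverse of their order for Ppard. The log2 change of Cox6c was 0.75, and 0.39 without WT3 and KO8. Tomm20, a receptor of the mitochondrial import pore, had means of 18.3 and 27.5 FPKM and groups that did not overlap. Cox7c had means of 550.1 and 713.4 FPKM, and Alas1, the first enzyme of haem synthesis, 42.8 and 28.9 FPKM. None of these passed, with limma adjusted p from 0.48 to 0.484.

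**Figure D4:**
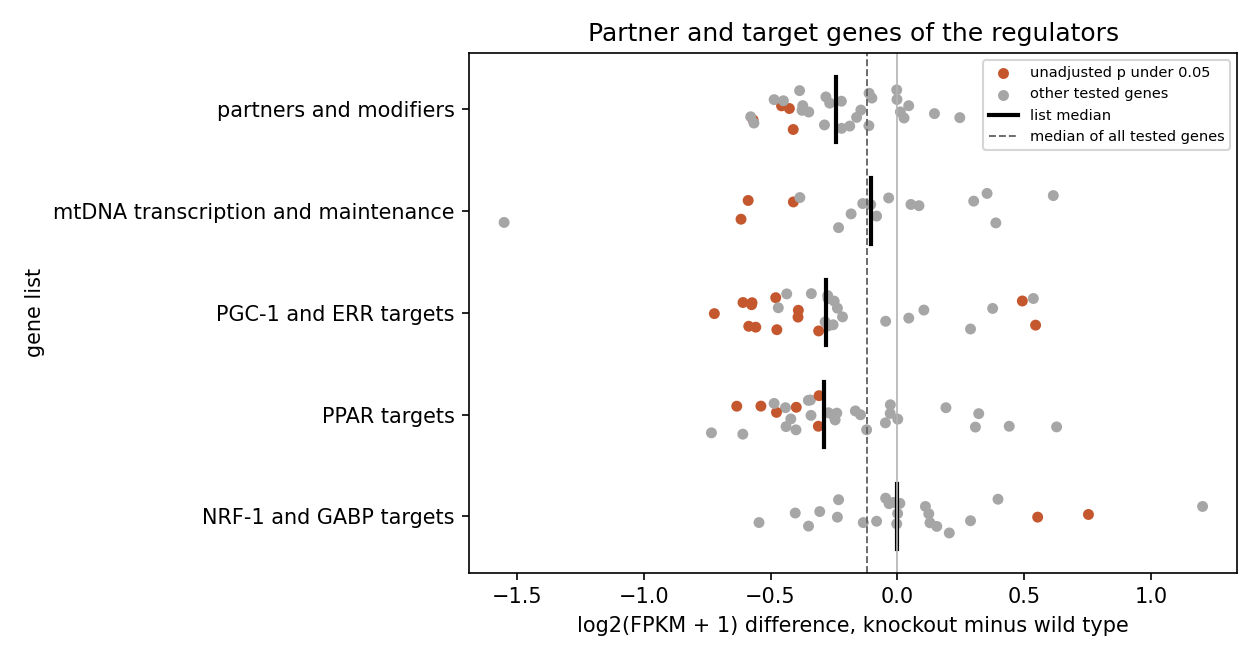
Difference in log2(FPKM + 1), knockout minus wild type, of each tested gene of the 5 lists, one point per gene with vertical scatter for legibility; red points have an unadjusted p under 0.05, black bars are list medians and the dashed line is the median of all tested genes. The medians of PGC-1 and ERR targets (-0.28) and PPAR targets (-0.29) lie left of the dashed line at -0.12, and that of NRF-1 and GABP targets (-0.00056) lies right of it.

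The genes whose values most resembled those of Ppargc1a over the 8 mice were Lonrf1, Tmem143, Yipf7, Usp2 and Ppp2r3a, by Pearson r of log2(FPKM + 1). Their r ran from 0.944 to 0.988 and Spearman's rho from 0.857 to 0.976. Genes with provisional names (Riken, Gm-numbered, LOC or accession-like) were left out of this ranking. Being the highest of the remaining tested genes, these values carry no p. Lonrf1, a RING finger gene, read 1.67, 2.21, 3.27 and 2.81 FPKM in wild-type mice, against 1.35, 0.995, 1.65 and 1.44 FPKM in knockouts, highest in WT3 and lowest in KO6 as Ppargc1a was. For Esrra the closest were Smg5, Rrp9, Pcbp4, Erc1 and Serinc2, with r from 0.929 to 0.973. Smg5, a factor of nonsense-mediated decay, was also highest in WT3, at 16.7 FPKM, and lowest in KO6, at 9.35 FPKM. The genes of a library share its depth and length trend. These trends differed between the 8 mice, and the correlations also carry them. The 8 mice include both genotypes, so the correlations carry any difference between the groups too. For Lonrf1, as for Ppargc1a, every knockout lay under every wild type.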

How the data were processed

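Per the labels' protocols, RNA with an integrity number above 7 went into TruSeq v2 libraries, read for 50 cycles from one end, aligned to mm10 with TopHat 2.0.9 and quantified with Cufflinks. The protocol gives Cufflinks 2.0.2 and the submitters' processing notes 2.2.1. Not given in the sources used here are their annotation and strand setting. The authors deposited FPKM per mouse, with mean FPKM, a standard error (a signal never below 0) and flags for thresholds of their p-value. Columns WT1 to WT4 match labelled mice by number, and KO5 to KO8 match the knockout group only. FPKM carry no read totals, so depth is known only relative to WT2, from the mode of FPKM ratios of genes under 0.3 FPKM (kernel SD 0.05), and no counting interval is given.

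Genotypes were compared by 2-sided limma-trend tests of log2(FPKM + 1), on genes with a mean of at least 1 FPKM, genotype the only term, Benjamini-Hochberg over all 11118, threshold 0.05. Single genes also got an exact permutation test over 70 labelled splits. Named genes were the 10 members, Bcat2, the 4 smallest p and the most and least abundant tested gene of each of 5 lists, and the 5 genes most like Ppargc1a and Esrra; 1 gene this rule names is not reported here. Members and lists were chosen with earlier results of these data known. Positions are the deposited start plus 1. Alternatives were pseudocounts of 0.1 and 0.5, no filter or a mean of 5 FPKM, median-ratio and quantile scaling, eBayes without trend, array weights, summed rows, 0 as missing, each mouse left out, and WT1 with KO6 left out. Added after seeing the data were leaving out WT3 with KO8 and removing a loess trend (span 0.5) on length and GC of the longest GENCODE M21 transcript. The filter was applied again in each. The code was tested on simulated data. Software was limma 3.58.1 in R 4.3.3, and scipy 1.17.1, matplotlib 3.10.9 and pandas 2.3.3 in Python 3.11.15.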

Additional observations from a re-analysis of the deposited data

Results flagged for a closer look

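In 2 cases a single mouse lay far from the others of its group, with a gap to the nearest mouse above Dixon's 95% critical share of the group's range. Ppargc1a read 2.43 FPKM in KO6 against 2.92 to 2.99 FPKM in the other knockouts, a gap of 0.875 of the range. Esrra read 46.6 FPKM in WT3 against 35.5 to 36.5 FPKM in the other wild-type mice, a gap of 0.91 of the range. In all, 28 groups of 4 values were examined, and chance flags about 1 in 20.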

How the results depend on the processing

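The count of regulators past the threshold was 0 under all 21 alternatives, as was that of partner and target genes, and the mean Esrra share of ERR transcripts moved by less than 1 SD under the 10 run. Ppargc1a stayed negative, from -0.43 to -0.22 (limma adjusted p from 0.417 to 0.884), as did Ppara (-0.59 to -0.13) and Ppard (-0.51 to -0.045). Signs turned for genes near 0. Median-ratio scaling gave 0.017 for Esrra, 0.029 for Esrrg and 0.023 for Nrf1, and quantile scaling 0.016 for Esrrg and 0.037 for Nrf1. Nrf1 was also 0.0046 with the length and GC trend removed and 0.037 without WT3 and KO8, where Crebbp was 0.065. Tfam was -0.12 and Ccbl2 -0.0082 without WT1 and KO6. With single mice left out, values ran from -0.22 to 0.038 for Esrrg (above 0 without WT4), -0.20 to 0.040 for Nrf1 (above 0 without WT4 or KO8), -0.071 to 0.13 for Tfam (below 0 without WT1, WT2, KO6 or KO7), -0.14 to 0.18 for Ccbl2 (below 0 without WT2, WT4 or KO6) and -0.0080 to 0.17 for Polg2 (below 0 without KO6). Bcat2 fell under every setting, and lost the call only without WT3 and KO8 (-3.56, limma adjusted p = 0.132). Without WT1 and KO6, also 3 mice per group, its limma adjusted p was 0.000286. Over all genes 3 passed, and this became 1 with 0 as missing, 10 without WT1 and KO6, and 3 to 8 with single mice left out (8 without WT1, WT2 or KO7, 5 without WT4 or KO6). The cause of these changes was not tested. No paired analysis was possible because the knockout columns carry no replicate number of the labels. Esrrb and Ppargc1b lie under 1 FPKM on average, and the depth behind their values is known only relative to the other mice.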
